A study of Drosophila melanogaster with 17 samples.

Results

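Meiotic recombination in the Drosophila female was followed here through 10 genes: c(3)G, C(2)M and ord of the chromosome axis and synaptonemal complex, mei-W68 and mei-P22 of break formation, mei-218 of crossover control, and spn-B, spn-D and okr of strand exchange, with 1 further member that is counted below but not described singly. They were taken by name from the deposited gene tables, where all 10 were found among 12505 protein-coding genes measured by RNA-seq and 13797 measured by RNA polymerase II (Pol2) ChIP-seq. C(2)M is spelled c(2)M there. All samples were whole ovaries of Drosophila melanogaster females aged 2 to 4 days. The compared genotypes were wild type and cuff, with 3 libraries per genotype in each assay, each from a dissection of about 30 females. The genotype labels name no cuff allele and no transgene or driver for these libraries. The protein Cutoff, encoded by cuff, works with Rhino and Deadlock at the clusters that give rise to piRNAs.

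Meiotic recombination begins in the germarium, at the tip of the ovariole. There the chromosomes of the future oocyte and of its sister cells pair, and the synaptonemal complex, a protein zipper, joins the homologues along their length. The enzyme encoded by mei-W68 cuts both DNA strands, and the RecA-family proteins of the spindle genes repair the cuts from the homologue, some of them as crossovers. In the fly the synaptonemal complex can assemble without breaks. Breaks that stay unrepaired, as in spn-B or okr mutants, activate a checkpoint that lowers Gurken protein and alters the eggshell.

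Each assay was deposited as 1 value per gene and genotype, called the authors' mean here, with a p-value from DESeq. Values of single libraries were not analysed here, so no SD, n-based error or overlap of samples can be given. For the authors' p, the dispersion, a measure of spread, was pooled and taken from a parametric fit alone. A low p for a single gene therefore does not show that its own libraries were alike within each genotype. A gene is called changed where the p in the authors' deposited table was 0.05 or less. By that rule 9.24% of all genes were called in RNA (5.5% higher and 3.73% lower in the mutant) and 1.46% in Pol2 (0.812% higher and 0.652% lower). The authors' means summed over all genes to 89336038 and 85598452 in RNA, and to 51692649 and 50036639 in Pol2, for wild type and mutant. RNA of cuff itself stood at 951 and 1105 (p = 0.9 in the authors' deposited table), and as the allele is not named this value is no check of the labels. In whole ovaries fewer cells of a type and less RNA per cell cannot be told apart.

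In RNA, 3 of the 10 genes rose (c(3)G, ord and mei-P22), 1 fell (spn-B) and 6 did not pass the threshold, 4 called against a background of 9.24%. Both directions were present, so the median log2 change of the 10 was -0.06, beside 0.02 over all genes tested. By the authors' means 5 genes were higher in the mutant and 5 lower.

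Of the 3 axis and synaptonemal complex genes, 2 rose in RNA and 1 did not pass. c(3)G encodes the transverse filament protein that spans the complex between the homologues. Its authors' mean rose 2-fold, from 7698.7 in wild type to 15434 in the mutant (p = 0.003 in the authors' deposited table). ord encodes a protein of sister chromatid cohesion in meiosis that also supports the synaptonemal complex, and its RNA was scarce in both genotypes. It went from an authors' mean of 76.4 to 289.6, a 3.79-fold rise, with p = 0.04 in the authors' deposited table.

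C(2)M, a kleisin-like protein of the lateral element on which the complex is built, had the opposite sign. Its authors' mean was 4893.3 in wild type against 3245.9 in mutant ovaries (p = 0.2 in the authors' deposited table), and the gene did not pass. The RNA log2 changes of the 3 genes thus ran from -0.59 for C(2)M through 1.0 for c(3)G to 1.91 for ord. In Pol2 all 3 had a higher mean in the mutant, and 0 passed.

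Of the break formation genes, mei-P22 rose. mei-P22 encodes a partner that mei-W68 needs to make breaks. Its authors' mean rose 5.09-fold, from 98.5 in wild type to 501 in mutant ovaries (p = 0.02 in the authors' deposited table). This was the largest RNA change among the 10 genes. mei-W68, the Drosophila Spo11 homologue that cuts the DNA, had authors' means of 11442 and 14987 (1.31-fold) with p = 0.4 in the authors' deposited table. mei-218 encodes an MCM-related protein that promotes crossovers. With p = 0.8 in the authors' deposited table, its means of 2951.5 and 3209.5 lay 1.09-fold apart.

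The 3 strand exchange genes described here had a lower RNA mean in the mutant, and 1 of them passed. spn-B, a RecA-family protein needed to repair meiotic breaks, fell 2.75-fold, its authors' mean being 2786.2 in wild type against 1011.9 in mutant ovaries. Its p of 0.0003 was the lowest of the 10 genes in the authors' deposited table. spn-D, a further RecA-family protein of meiotic repair, had authors' means of 1253.7 and 705.4, 1.78-fold lower in mutant ovaries (p = 0.1 in the authors' deposited table).

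okr, a relative of yeast Rad54 that acts in strand exchange, differed less between genotypes. Its authors' means were 5177.6 and 4384.1 (1.18-fold lower), with p = 0.8 in the authors' deposited table. For these 3 genes the log2 changes ran from -1.46 for spn-B through -0.83 for spn-D to -0.24 for okr. This ordering by role was noticed in these data and was not tested.

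**Figure D1:**
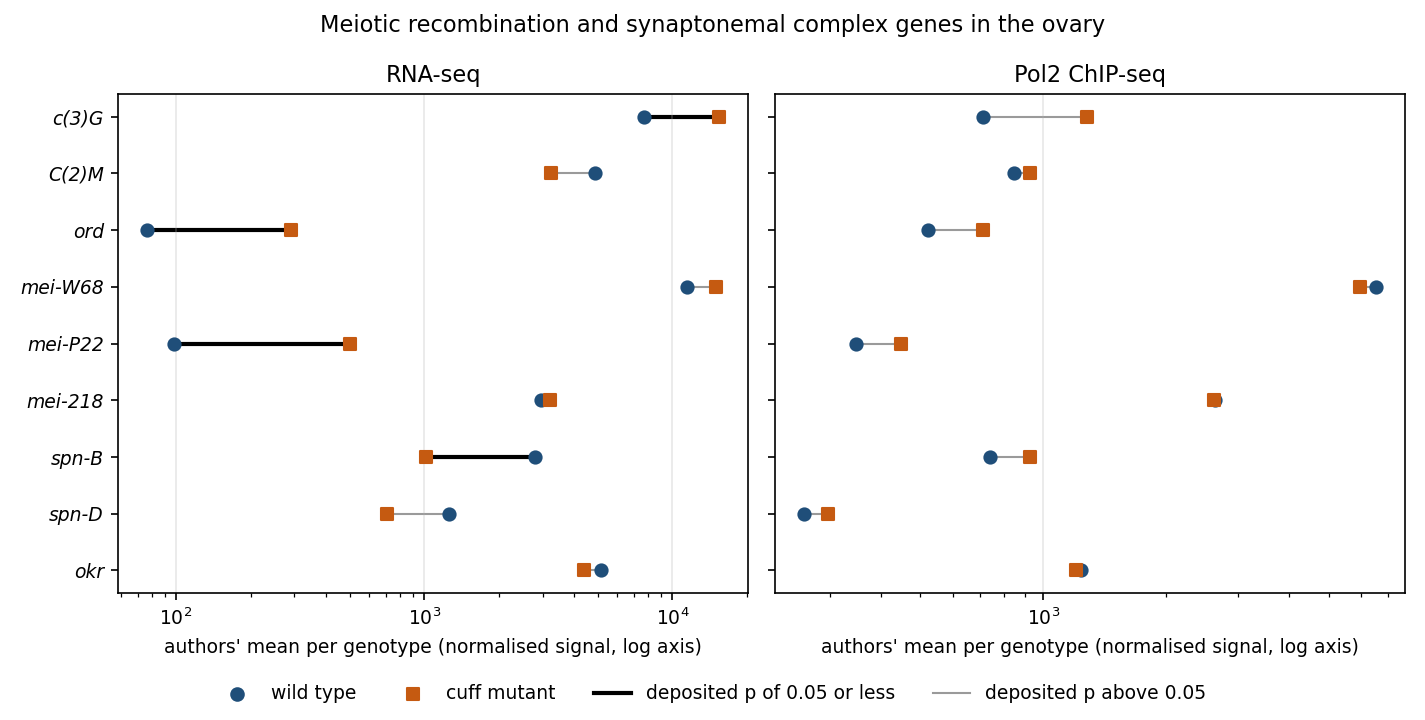
Authors' mean per genotype of 9 of the meiotic genes, in RNA-seq (left) and Pol2 ChIP-seq (right), on log axes; circles are wild type, squares the cuff mutant, and thick black lines join genotypes with a deposited p of 0.05 or less. In RNA the thick lines belong to c(3)G (7698.7 to 15434), ord (76.4 to 289.6), mei-P22 (98.5 to 501) and spn-B (2786.2 to 1011.9), and in Pol2 no line is thick.

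Set among the genes that changed in the whole table, these were not extreme. Of the 688 genes higher in the mutant, 537 had a larger log2 change than c(3)G, 185 than ord and 125 than mei-P22. Among the 467 genes lower in the mutant, 140 changed more than spn-B. When the deposited p was adjusted once more over all genes by Benjamini-Hochberg, spn-B kept its call at 0.0151, whereas c(3)G at 0.0887, mei-P22 at 0.308 and ord at 0.478 did not. The headers do not say whether the deposited p was already adjusted, in which case the further adjustment is too strict.

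Markers of the ovary's cell types were read beside these values. Of 10 germline genes, 0 rose and 1 fell, bam, whose product drives the germline cysts out of the stem cell state (5057.3 to 1653.7, p = 2e-05 in the authors' deposited table). The summed authors' means of the germline list were 356491 and 362163, or 1.02-fold. osk, at 113027 and 110687, was the largest part of that sum. By their means 5 germline genes were higher and 5 lower, so the sum does not show that each stayed level. Of 8 follicle cell markers 5 rose by the deposited p and all 8 had a higher mean, with sums of 13978 and 31981 (2.29-fold). Of 6 muscle markers 5 rose and all 6 had a higher mean (3.03-fold in sum). Of 3 genes listed as hemocyte markers, Pxn and vkg rose and all 3 had a higher mean (2.19-fold in sum). vkg, at 4975 and 10492, made up most of that sum, and whether it marks hemocytes in the ovary was not tested. Hml, at 89.3 and 269.2, did not pass (p = 0.2 in the authors' deposited table). In Pol2 the summed means were 0.872-fold for germline, 1.05-fold for follicle cell, 1.54-fold for muscle and 1.24-fold for hemocyte markers, mutant over wild type. There 1 marker was called, the muscle gene bt, and all 6 muscle markers and all 3 hemocyte markers had a higher mean. Of the germline markers 2 had a higher Pol2 mean and 8 a lower one. Of the follicle cell markers 3 had a higher Pol2 mean and 5 a lower one, unlike their RNA. No marker of these lists was at 0 in either genotype. Their part in the changes of the meiotic genes was not tested.

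Pol2 occupancy was compared next, to ask whether the genes whose RNA changed also changed in polymerase signal. By the deposited DESeq p, 0 of the 10 genes passed in either direction, against a background of 1.46% (0.812% higher and 0.652% lower), and at 0.1 or less c(3)G alone did, where 3.07% of all genes were called. No other tool could be run on merged values. The median log2 change of Pol2 signal was 0.17, beside 0.08 over all genes. Of 1120 genes that were called in RNA and measured by both assays, 78 were called in Pol2 as well, or 6.96%.

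c(3)G had the largest Pol2 difference of the 10, in the direction of its RNA. Wild-type ovaries had an authors' mean of 711.5 and mutant ovaries 1281.1, 1.8-fold more (p = 0.06 in the authors' deposited table). Its log2 change was 1.0 in RNA and 0.85 in Pol2, a difference of 0.16 between assays. ord had Pol2 means of 521.1 and 709.5 (1.36-fold) with p = 0.4 in the authors' deposited table. mei-P22 had 347.3 and 447.8 (1.29-fold) with p = 0.7 there. For these 2 genes the RNA log2 change was larger than the Pol2 log2 change by 1.46 and 1.97.

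spn-B, lower in RNA, had a higher Pol2 mean in the mutant. Its Pol2 means were 741.6 and 929.9 (1.25-fold), with p = 0.7 in the authors' deposited table, so its RNA log2 change lay 1.79 below its Pol2 log2 change. spn-D likewise had 259.1 and 297.4 in Pol2 with p = 0.9 there, and a difference of -1.03 between assays. For C(2)M the Pol2 means were 845.7 and 929.9 with p = 0.9 in the authors' deposited table, and the difference was -0.73. The differences between assays carry no error and were not tested, since only merged values were compared.

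A further 3 genes had Pol2 means within 1.10-fold between genotypes. mei-W68 had 6540.5 and 5986.1, mei-218 had 2630.8 and 2617.5, and okr had 1235 and 1205.7. Their p-values in the authors' deposited table lay between 0.7 and 1. In mei-P22, spn-D, mei-218 and okr the sign of the Pol2 difference depended on the scaling.

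**Figure D2:**
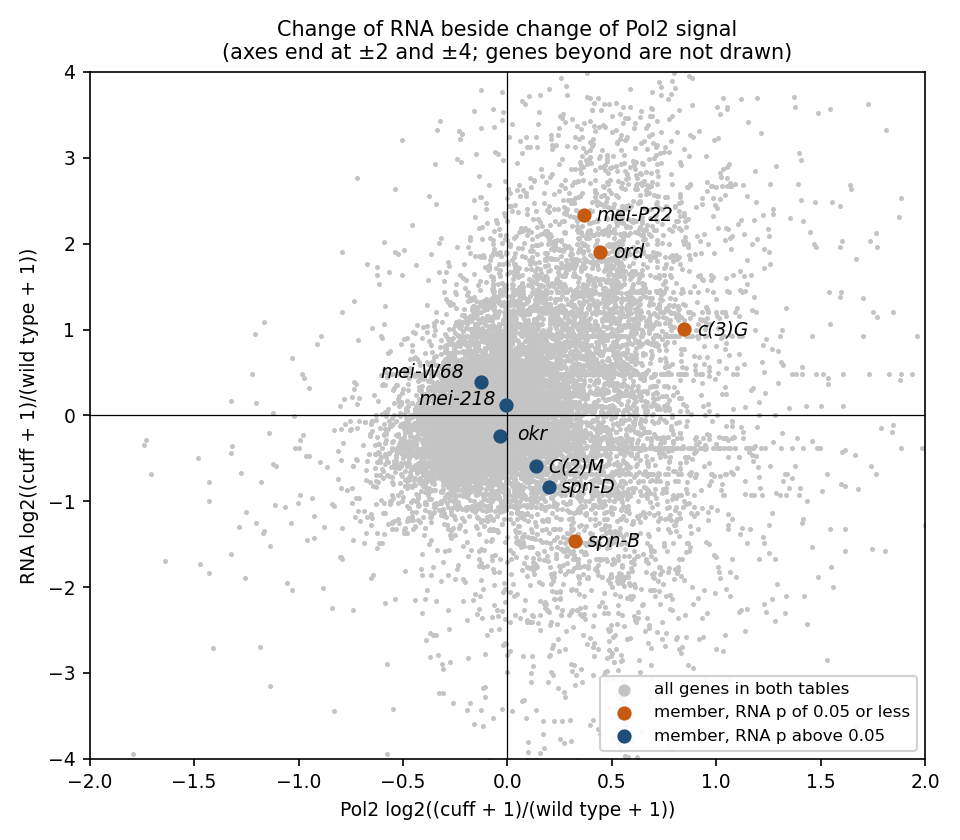
Log2 change of RNA (vertical) against log2 change of Pol2 signal (horizontal), cuff mutant over wild type with 1 added to each mean; grey points are all genes in both tables within the axis limits, orange points the 4 meiotic genes called in RNA and blue points 5 that were not. c(3)G lies at 1.0 in RNA and 0.85 in Pol2, and spn-B at -1.46 in RNA and 0.33 in Pol2.

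Other genes of meiosis were read from a list by function, of which 37 of 38 were found in each table. In RNA 1 rose, 1 fell and 35 did not pass, beside 9.24% called among all genes, and the list median was -0.10. In Pol2 0 of the 37 passed by the deposited DESeq p, beside 1.46% of all genes, and at 0.1 or less sunn alone did, beside 3.07%. The list median in Pol2 was 0.00.

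The gene that rose belongs to break formation. vilya, a RING-domain protein that binds mei-P22 and is needed for breaks, is listed as CG2709 and went from an authors' mean of 50.9 to 269.6, 5.3-fold, with p = 0.01 in the authors' deposited table. Its log2 change of 2.38 stood beside 2.33 for mei-P22. RNA of both genes was low in wild type, and centred on genes of like level mei-P22 was at 2.06. The Pol2 means of vilya were 621.8 and 684.6 (1.10-fold, p = 0.9 in the authors' deposited table). This stood beside 1.29-fold for mei-P22, and neither gene passed in Pol2. The 3 further break genes did not pass. nenya, listed as CG31053, had 631.1 and 637.2, trem had 5450 and 5555.5, and narya, listed as CG12200, had 46.6 and 42.1, the first and last being RING-domain relatives of vilya and trem a zinc finger protein.

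Further synaptonemal complex genes did not pass in RNA. corolla, a central region protein listed as CG8316, had authors' means of 588.8 and 1045.5 (1.78-fold) with p = 0.09 in the authors' deposited table. sunn, a cohesion protein listed as CG32088, had 45.2 and 92.9 in RNA with p = 0.9 there. Its Pol2 means were 392.9 and 792.2 (2.02-fold), with p = 0.1 in the authors' deposited table. cona, a partner of c(3)G in the central region, had 185.7 and 126.4 in RNA with p = 0.9 there.

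The gene that fell acts at the end of meiosis. cort encodes a female-specific activator of the anaphase-promoting complex and went from an authors' mean of 6655.5 to 3743.5 (1.78-fold lower, p = 0.004 in the authors' deposited table). Its Pol2 means were 1592.3 and 1387.1. Neither vilya nor cort passed when the deposited p was adjusted again.

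The other functional groups held no called gene in either assay. Of 9 crossover genes, mms4, a subunit of a junction-cutting nuclease, came nearest with RNA means of 2346.7 and 1293.5 and p = 0.08 in the authors' deposited table. The strand exchange and checkpoint group numbered 5. grp, the Chk1 kinase, had 122418 and 71277 with p = 0.06 in the authors' deposited table. mei-41, the ATR kinase, had 4499.4 and 6258.3 with p = 0.6 there. The cohesin genes SMC1, SMC3 (listed as Cap), vtd and SA had RNA log2 changes between -0.07 and 0.12. Of all 6 cohesion genes, 3 had a higher RNA mean in the mutant and 3 a lower one. The lowest was mei-S332 at -0.73 (p = 0.1 in the authors' deposited table).

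**Figure D3:**
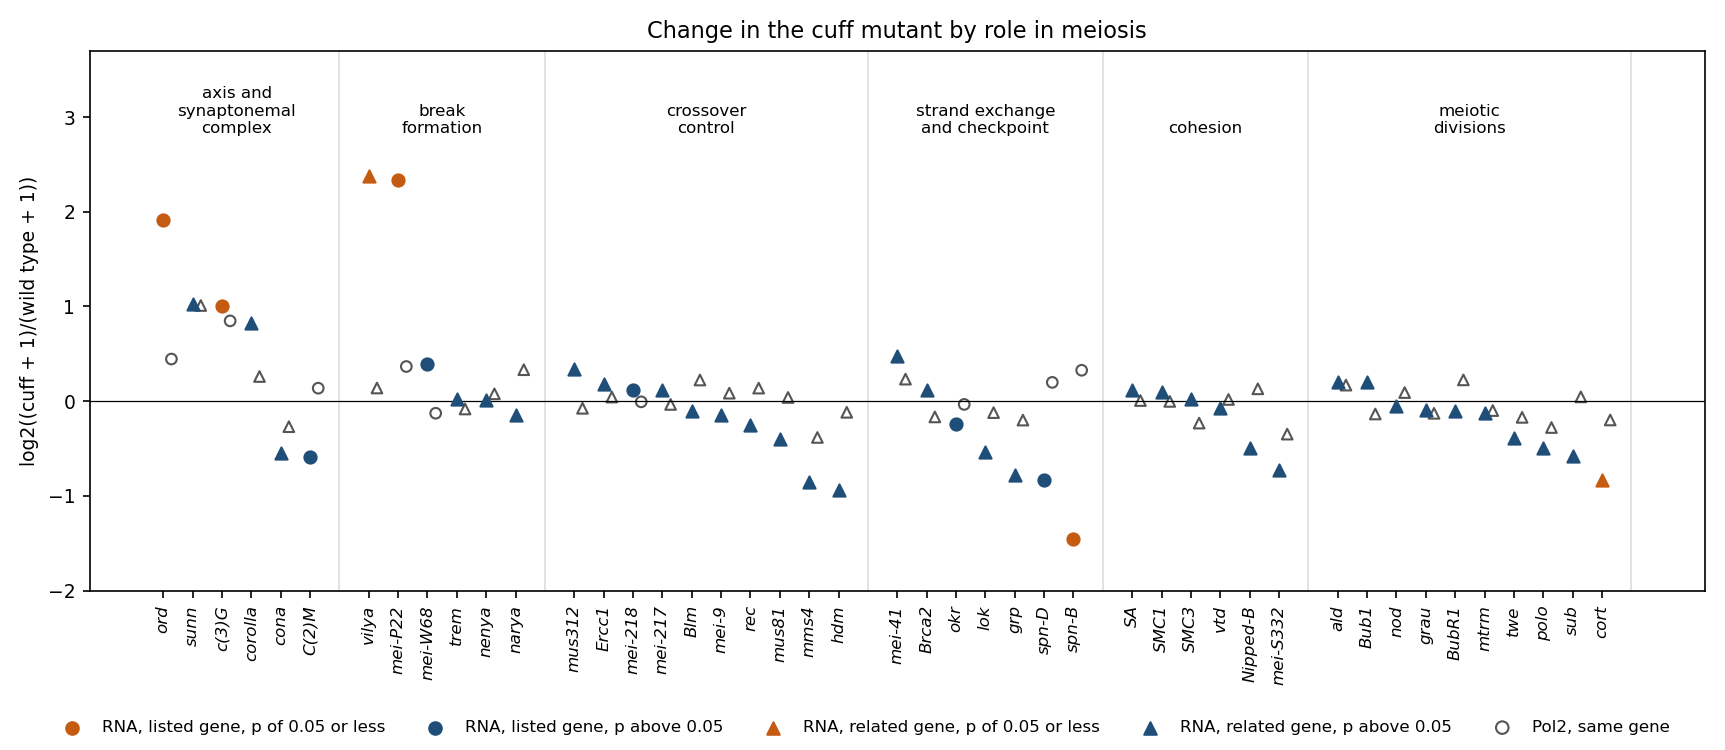
Log2 change in the cuff mutant of 45 genes by role in meiosis; filled circles are 9 of the listed genes and filled triangles 36 related genes in RNA, orange where the deposited p was 0.05 or less, and open symbols give Pol2 for the same gene, drawn to its right. The orange points are ord, c(3)G, vilya, mei-P22, spn-B and cort, and cohesion genes lie between -0.73 and 0.12 in RNA.

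Because reads of overlapping genes may enter more than 1 gene in these tables, the neighbours of each member were examined. Among 6558 genes with a wild-type RNA mean of 1000 or more, 76 sets of genes shared identical values in both genotypes to the printed decimal. Whether the genes within these sets overlap was not tested. Which genes overlap was read from a RefSeq gene table of assembly Release 6, without strand. ord, mei-P22 and spn-D overlapped no other gene there, and the other 7 did.

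Of the genes that rose, c(3)G is the one that overlaps another gene. Uros2, which overlaps it and is listed as CG9589, had RNA means of 4.5 and 10 (2.22-fold) with p = 0.7 in the authors' deposited table. These RNA means were far below the 7698.7 and 15434 of c(3)G. In Pol2 the levels lay closer. Uros2 had Pol2 means of 283.9 and 444.8 (1.57-fold, p = 0.4 in the authors' deposited table), beside 711.5 and 1281.1 for c(3)G. How much Pol2 signal c(3)G shares with Uros2 was not measured here. The genes next to mei-P22, mRpL50 and Cdc27, had log2 changes of -0.31 and 0.27. Next to ord, CG13540 had RNA means of 75.8 and 181.9 with p = 0.2 in the authors' deposited table, and CG3124 had 0.3 in wild type and was listed at 0 in the mutant. CG13540 was therefore higher by its mean in the mutant, as ord was.

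spn-B differed in direction from the gene it overlaps. NK7.1, a homeobox gene, had an RNA mean of 3410.3 in wild type against 5691.2 in mutant ovaries (p = 0.2 in the authors' deposited table). The genes to either side, listed as CG3321 and CG31320, had log2 changes of 0.55 and 0.33, while spn-B was at -1.46. How many reads spn-B shares with NK7.1 was not measured here.

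For members that did not pass, the overlaps bear on how the values are read. C(2)M overlaps CG5861, whose RNA mean fell from 13588 to 7831.8 with p = 0.05 in the authors' deposited table. mei-W68 overlaps par-1, a polarity kinase, which had 28314 and 38417, a log2 change of 0.44 beside 0.39 for mei-W68. mei-218 and mei-217, which overlap, had nearly the same values, 2951.5 and 3209.5 beside 2942.6 and 3183.1, and are read as 1 measurement. Among the genes that passed in the related list, cort overlaps cup, a translational repressor with 16272 and 25854, and CG34310, which carries the same values as cup.

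**Figure D4:**
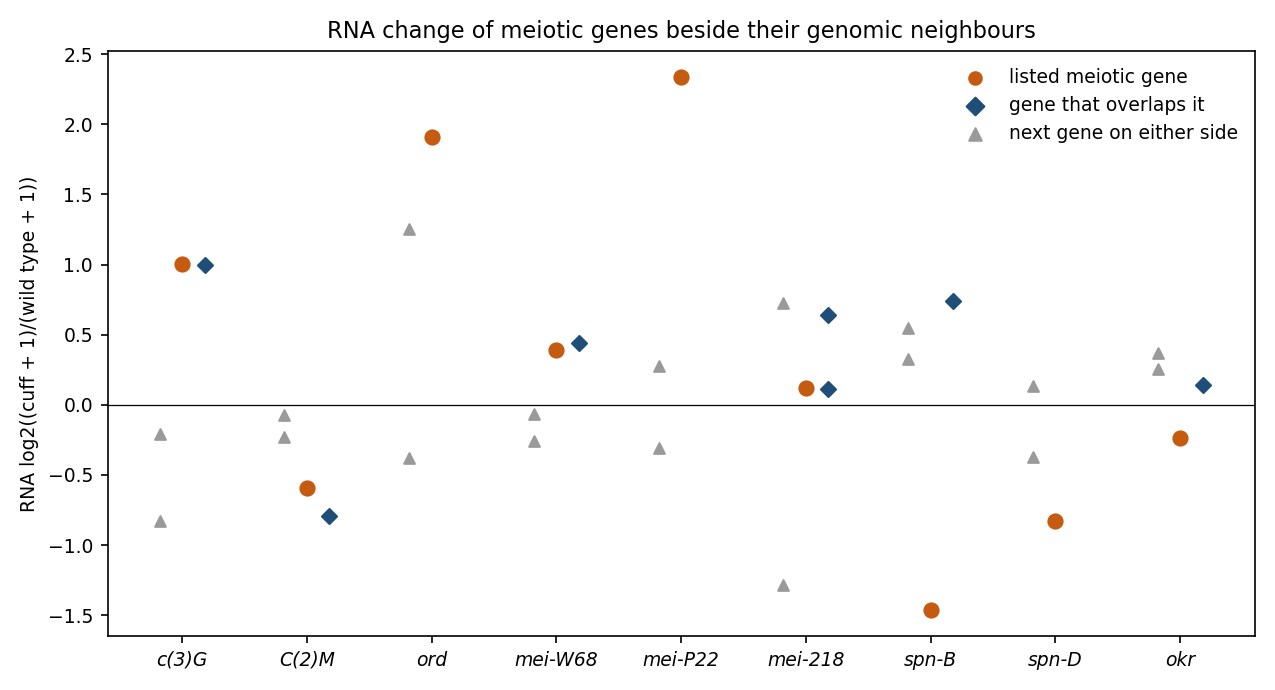
RNA log2 change, cuff mutant over wild type with 1 added to each mean, of 9 meiotic genes (orange circles) beside the genes that overlap it (blue diamonds) and the next gene on either side (grey triangles). spn-B at -1.46 lies below all 3 of its neighbours, and mei-P22 at 2.33 lies above both of its own.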

How the data were processed

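RNA-seq and Pol2 ChIP-seq of wild-type and cuff mutant ovaries were read from 2 deposited gene tables; the Cuff peak list was not used here. The submitters' processing notes name DESeq 1.16.0, TopHat2 2.0.8 and Bowtie2 2.0.0 beside cutadapt 1.2.1, MACS2 2.0.10.20130501, bedtools and SAMtools 0.0.19, and build dm3; their roles, the annotation and the use of strand in counting are not given in the sources used here. Per the file headers, the authors ran DESeq with pooled dispersion from the parametric fit alone. The authors' deposited genotype values are a signal never below 0, taken to be size-factor-normalised reads averaged over libraries, which the headers do not state. The deposited log2 fold change has 1 decimal and the authors' deposited p-value 1 significant digit. Library depth is unknown, and planned count tests, the replicate block and leaving out libraries could not be run.

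Folds are quotients of the 2 genotype values, and log2 changes add 1 to each mean, which understates changes of low genes. A log2 value is said to move where it shifts by more than 0.1. Calls were fixed at a deposited p of 0.05 or less. Of the 10 members 1, and 1 related gene, are not reported here and not drawn; both stay in the counts. The named genes were the other members, related genes with a deposited p of 0.05 or less or the smallest otherwise, and genes overlapping a member; other related genes and next neighbours were chosen after their values were seen. Members and lists were chosen with earlier results of these data known. The calculations (Python 3.11.15, numpy 2.4.6) were tested on simulated data with planted changes and planted low p-values. That checks the arithmetic and not the authors' p. Alternatives were other p thresholds, pseudocounts, scalings and filters; centring on the 200 genes nearest in level was chosen after seeing the data.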

Additional observations from a re-analysis of the deposited data

How the results depend on the processing

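Of the 10 genes, 4 were called in RNA, beside 9.24% of all genes; 2 were at a deposited p of 0.01 or less (c(3)G and spn-B; 5.19% of all genes), and 1 (spn-B) with p adjusted again over all genes (2.81%) or over genes with a mean of 50 or more (3.13% of all genes). In Pol2, 1 gene was called at 0.1 or less in place of 0 (3.07% of all genes). Of the 37 related genes, 2 were called in RNA, 6 at 0.1 or less, near the 15.4% of all genes, 1 with a 2-fold difference also required (6.87%), and 0 with p adjusted again either way; in Pol2, 1 was called at 0.1 or less in place of 0 (3.07%). Without the 7 members that overlap another gene, the median log2 change of the remaining 3 was 1.91 in RNA in place of -0.06 and 0.37 in Pol2 in place of 0.17; fewer genes enter it. Centred on genes of like level, the medians of the 10 were 0.047 in RNA and -0.0066 in Pol2. The cause of that shift was not tested. Pol2 differences changed sign for mei-P22 (-0.061) and spn-D (-0.24) centred on level, for mei-218 (0.039 with each genotype divided by its sum, 0.064 centred on level) and for okr (0.012 divided by its sum), none of them called. The 4 RNA calls kept their sign under every pseudocount and scaling tried. Their log2 changes lay between 0.99 and 1.06 for c(3)G, 1.24 and 1.92 for ord, 1.70 and 2.35 for mei-P22, and -1.48 and -1.32 for spn-B. The low ends of ord and mei-P22 came from dividing by the sum. There 1 was added after scaling, which weighs more on low genes than 1 added to the means, so these ends do not show scaling alone. Dividing by the sum put the median Pol2 change of all genes at 0.12. No paired analysis was possible because the tables hold 1 merged value per genotype, and for the same reason no library could be left out.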
